A study of Mus musculus with 6 samples.

Results

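Described here are 10 genes of the intraepithelial lymphocyte compartment of mouse small intestine, out of 54012 genes in the table. They were chosen by name: the epithelial butyrophilin-like genes Btnl1, Btnl4 and Btnl6, and the lymphocyte genes Gzma, Gzmb, Cd3e, Cd8a, Cd7, Cd160 and Itgae. Each name matched 1 row, and all 10 passed the filter of a mean of 1 TPM or more over the 6 libraries. TPM is a transcript abundance corrected for gene length and scaled to the same total in every library.

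The libraries come from total RNA of the intestine of mice aged 8 to 12 weeks, 3 with the genotype label TLR4ΔIEC and 3 labelled wild type (WT), in a study of what losing TLR4, a sensor of bacterial lipopolysaccharide, does to gene expression of the small intestine. The sources used here do not give the Cre line or promoter behind the TLR4ΔIEC label, the strain, the sex or the stretch of small intestine. The WT mice carry no stated allele or treatment, and no treatment is stated for either genotype. Tlr4 itself read 1.29, 1.22 and 4.81 TPM in the libraries labelled TLR4ΔIEC, against 0.65, 0.57 and 0.70 TPM in the WT libraries (log2 fold change 0.92, SE 0.40, limma adjusted p = 0.243). That is not the direction of a loss, so every direction below compares libraries by their labels. The alpha-defensins of Paneth cells took 5.21 to 18.4% of all TPM in the libraries labelled TLR4ΔIEC and 25.3 to 28.7% in the WT libraries, and since the total is fixed, this share weighs on every other gene. TLR4ΔIEC replicate 2 stood apart, where 12221 genes reached 1 TPM, while the other libraries had 13197 to 13634 such genes. Listed markers of epithelium (15 of 15) and of T cells (20 of 20) were above 0 in all 6 libraries, and so were those of B cells except Cr2 in TLR4ΔIEC replicate 2. In such bulk RNA, fewer cells of a type and less RNA per cell cannot be told apart.

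Intraepithelial lymphocytes are T cells that sit between the enterocytes of the villus. Many carry the gamma-delta T cell receptor, most carry CD8, and in mice the epithelial protein Btnl1, paired with Btnl6 or Btnl4, maintains a gamma-delta subset of the small intestine. The lymphocytes are held in the epithelium by the integrin CD103, which binds E-cadherin on enterocytes, and are armed with granzymes.

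The 3 butyrophilin-like members lie in 1 cluster. It spans 192.8 kb of chromosome 17 (GRCm38) and also holds Btnl2, Btnl5-ps and Btnl7-ps. Btnl1 (ENSMUSG00000062638) is at chr17:34377132-34386028 on the plus strand, Btnl4 (ENSMUSG00000058435) at chr17:34466562-34477318 and Btnl6 (ENSMUSG00000092618) at chr17:34507804-34517352, both on the minus strand. The 250 bases before the RefSeq start of each (GRCm38.p6) are shown because the 3 genes had the same direction in these libraries, with that of Cd8a as a lymphocyte gene beside them. Capitals mark the letters CAAAGTC, an HNF4-type motif, read on either strand.
Btnl1 (chr17:34376882-34377131, plus strand): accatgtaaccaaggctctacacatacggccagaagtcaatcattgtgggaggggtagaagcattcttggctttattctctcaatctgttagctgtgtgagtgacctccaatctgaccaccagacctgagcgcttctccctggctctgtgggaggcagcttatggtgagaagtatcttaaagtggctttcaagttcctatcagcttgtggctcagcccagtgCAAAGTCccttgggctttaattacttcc
Btnl4 (chr17:34475938-34476187, minus strand): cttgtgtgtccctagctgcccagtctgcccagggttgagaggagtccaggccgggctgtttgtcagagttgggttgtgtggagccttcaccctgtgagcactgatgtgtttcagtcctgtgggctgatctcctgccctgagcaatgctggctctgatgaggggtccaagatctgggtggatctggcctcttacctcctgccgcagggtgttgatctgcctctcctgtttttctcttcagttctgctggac
Btnl6 (chr17:34517353-34517602, minus strand): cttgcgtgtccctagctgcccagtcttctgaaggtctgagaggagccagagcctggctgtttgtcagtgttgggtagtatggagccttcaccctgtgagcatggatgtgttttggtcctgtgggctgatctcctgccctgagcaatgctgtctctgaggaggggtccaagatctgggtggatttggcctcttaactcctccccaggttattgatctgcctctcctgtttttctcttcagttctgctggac
Cd8a (chr6:71373177-71373426, plus strand): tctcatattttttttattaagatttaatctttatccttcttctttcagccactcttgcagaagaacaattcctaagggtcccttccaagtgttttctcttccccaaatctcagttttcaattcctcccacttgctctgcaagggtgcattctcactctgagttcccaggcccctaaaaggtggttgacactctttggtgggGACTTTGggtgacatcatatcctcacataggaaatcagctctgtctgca

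RefSeq windows were held for 8 of the 10 members, 9 windows in all, and not for Cd7 and Itgae. The HNF4-type letters stood in the Btnl1 window, beginning 28 bases before the start, and in the Cd8a window on the opposite strand. They occur in 3.84% of all 32851 such windows. The CDX-type letters TTTATG and the GATA-type letters AGATAA, also read on both strands, were in none of the 9 windows, against 10.8% and 9.99% of all windows. The Btnl4 and Btnl6 windows were 90.5% identical over 252 alignment columns, while Btnl1 was 48.9% identical to Btnl4 and 48.0% to Btnl6. The Btnl4 window lies inside the GENCODE gene, in an intron, and the RefSeq start is 1381 bases downstream of the GENCODE start. Part of the transcripts is shared with other genes: 14.0% of the 50-base stretches of Btnl4 and 6.58% of those of Btnl6 also occur in another gene, most often the pseudogene Btnl5-ps. None of the stretches of Btnl1 or of the 7 lymphocyte genes do, which makes the levels of Btnl4 and Btnl6 less certain than that of Btnl1.

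All 3 butyrophilin-like genes stood higher in every library labelled TLR4ΔIEC than in any WT library, but by modest amounts, and none passed the threshold of an adjusted p of 0.05. Btnl1 read 148, 192 and 158 TPM in the libraries labelled TLR4ΔIEC, against 114, 117 and 108 TPM in WT. The lowest library labelled TLR4ΔIEC thus lay above the highest WT library, and TLR4ΔIEC replicate 2 was the highest of the 6. It averaged 166 ± 23.3 TPM in the libraries labelled TLR4ΔIEC and 113 ± 4.44 TPM in WT (SD, n = 3 each), with a log2 fold change of 0.55 (95% confidence interval 0.20 to 0.89, limma adjusted p = 0.118). Btnl6, a partner of Btnl1, read 214, 198 and 214 TPM in the libraries labelled TLR4ΔIEC, against 129, 173 and 172 TPM in WT. Here WT replicate 1 was the low library, and the other WT libraries lay closer to, but still below, those labelled TLR4ΔIEC. Its log2 fold change was 0.42 (interval 0.04 to 0.80, limma adjusted p = 0.205). Btnl4, the lowest of the 3, read 45.3, 41.6 and 42.3 TPM in the libraries labelled TLR4ΔIEC, against 32.9, 36.7 and 31.9 TPM in WT, with a log2 fold change of 0.34 (interval 0.04 to 0.63, limma adjusted p = 0.188).

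Of the 10 members, 0 passed limma's adjusted threshold, where 0.119% of all tested genes did (0.0446% higher and 0.0743% lower). With array weights 1.01% of tested genes passed, without TLR4ΔIEC replicate 1 2.74%, and again 0 of the 10 members. An unadjusted p under 0.05 was reached by 5 of the 10, against 21.2% of all tested genes. The 3 butyrophilin-like genes were higher, as were 18.4% of all tested genes, and Cd7 and Itgae were lower, as were 2.77%. The 3 libraries labelled TLR4ΔIEC lay wholly above the WT libraries in 24.1% of tested genes, so the same separation in the 3 butyrophilin-like genes is one that many genes show.

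**Figure D1:**
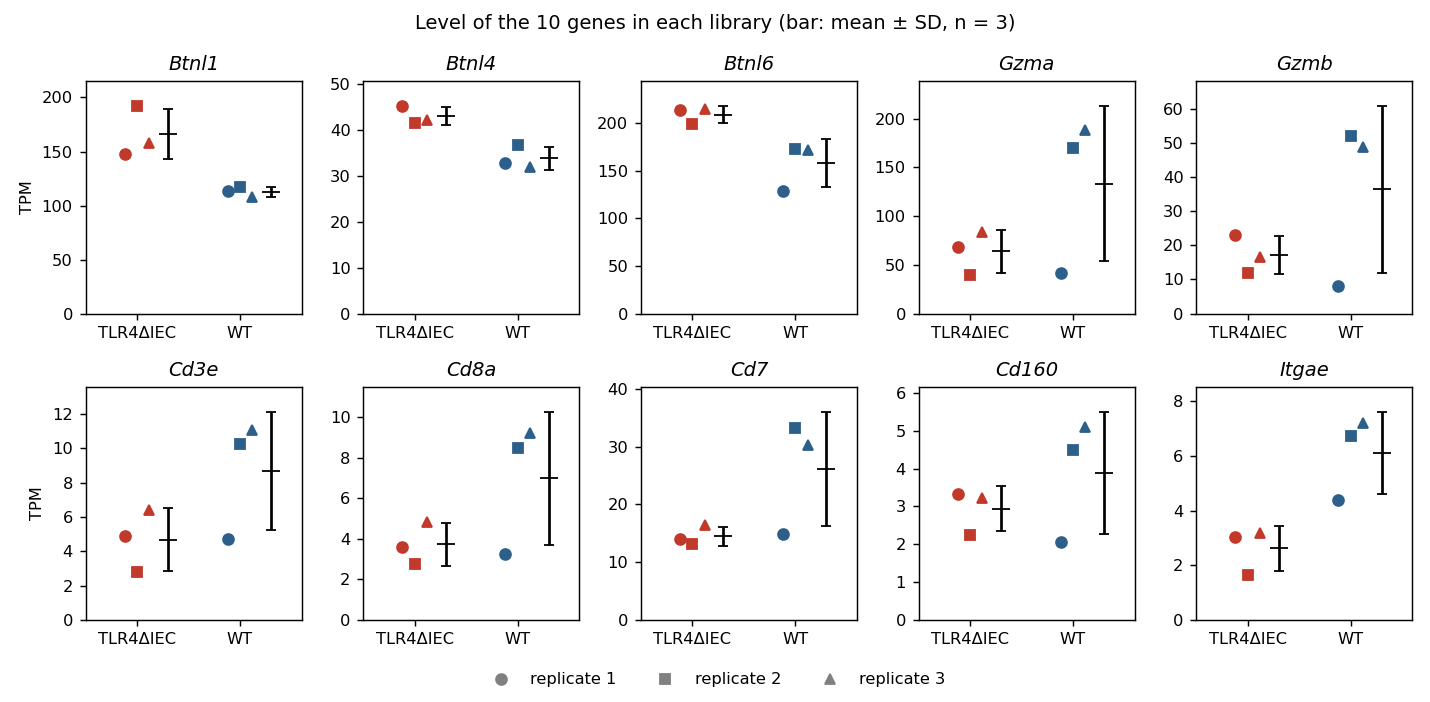
TPM (vertical axis, from 0) of the 10 genes in each library, with the libraries labelled TLR4ΔIEC left and WT right; symbols are replicates and the bar is the mean ± SD of 3 libraries. The groups are apart for Btnl1, Btnl4, Btnl6 and Itgae, and in the other lymphocyte genes WT replicate 1 lies among the libraries labelled TLR4ΔIEC or, for Gzmb and Cd160, below them.

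The size of the butyrophilin-like differences depended on how the libraries were scaled. Over all tested genes, the log2 fold changes had a median of 0.16 in TPM as deposited. That median was 0.03 under median-of-ratios scaling and 0.02 under quantile normalization. It was 0.003 when TPM were rescaled without the 20 most abundant genes, and −0.13 when they were rescaled without alpha-defensins, mitochondrial transcripts and 18S-like genes. Btnl1 had 0.40, 0.25, 0.37 and 0.22 under these 4 scalings, Btnl6 had 0.27, 0.13, 0.24 and 0.09, and Btnl4 had 0.19, 0.05, 0.17 and 0.02. No sign turned. Relative to the median of all genes under the same scaling, the difference of Btnl1 was 0.23 to 0.39, that of Btnl6 0.11 to 0.26 and that of Btnl4 0.03 to 0.18.

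**Figure D2:**
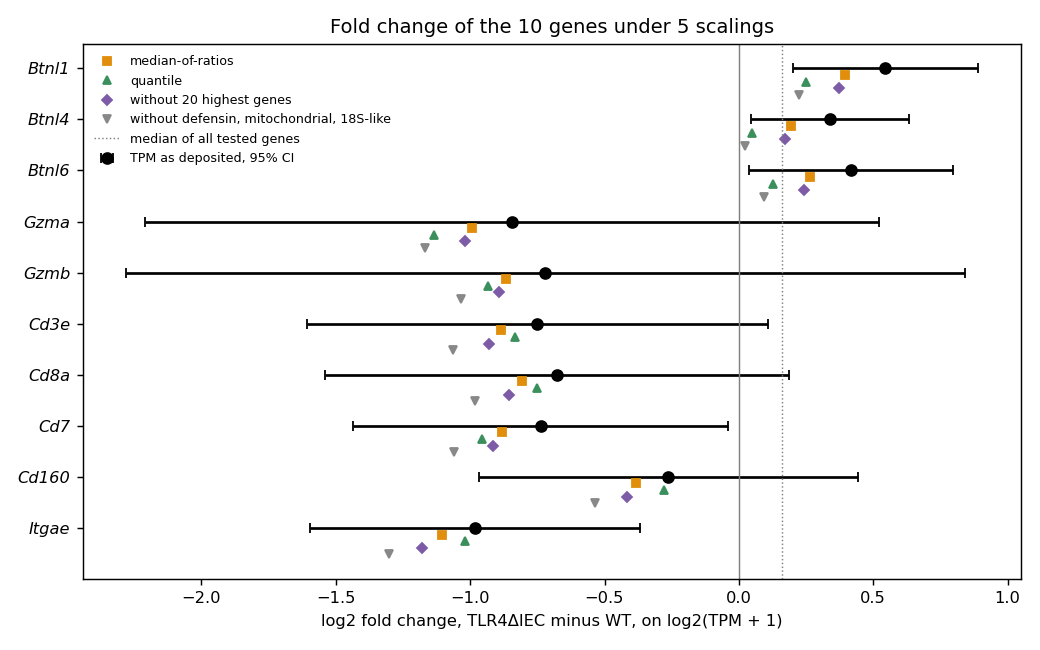
Log2 fold change of each gene (horizontal axis, TLR4ΔIEC minus WT on log2(TPM + 1)) in TPM as deposited, with its 95% confidence interval, and under 4 other scalings; the dotted line is the median of all tested genes, 0.16. The butyrophilin-like genes move toward 0 under the other scalings and the 7 lymphocyte genes stay below 0.

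Set against the epithelium, the butyrophilin-like genes overlapped between the genotypes. All 15 epithelial markers had positive fold changes (median 0.51, and 0.19 without alpha-defensins, mitochondrial and 18S-like transcripts, with none past the threshold), 12 of them with the libraries labelled TLR4ΔIEC wholly above WT. Over all tested genes, 9163 of 13458 had positive fold changes and 24.1% had that separation. The keratins Krt8 and Krt19 and the brush border lectin Lgals4 had log2 fold changes of 0.51, 0.58 and 0.33. Summed, the 15 markers came to 18198, 24336 and 18273 TPM in the libraries labelled TLR4ΔIEC, against 14556, 13948 and 12998 TPM in WT. Per 1000 TPM of that sum, Btnl1 had 8.11, 7.90 and 8.66 TPM in the libraries labelled TLR4ΔIEC, against 7.81, 8.37 and 8.31 TPM in WT. It averaged 8.22 ± 0.397 TPM in the libraries labelled TLR4ΔIEC and 8.16 ± 0.310 TPM in WT (SD, n = 3 each), a difference smaller than either spread. On that scale Btnl6 averaged 10.5 ± 2.07 TPM in the libraries labelled TLR4ΔIEC and 11.5 ± 2.33 TPM in WT. Btnl4 averaged 2.17 ± 0.409 TPM in the libraries labelled TLR4ΔIEC and 2.45 ± 0.185 TPM in WT.

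**Figure D3:**
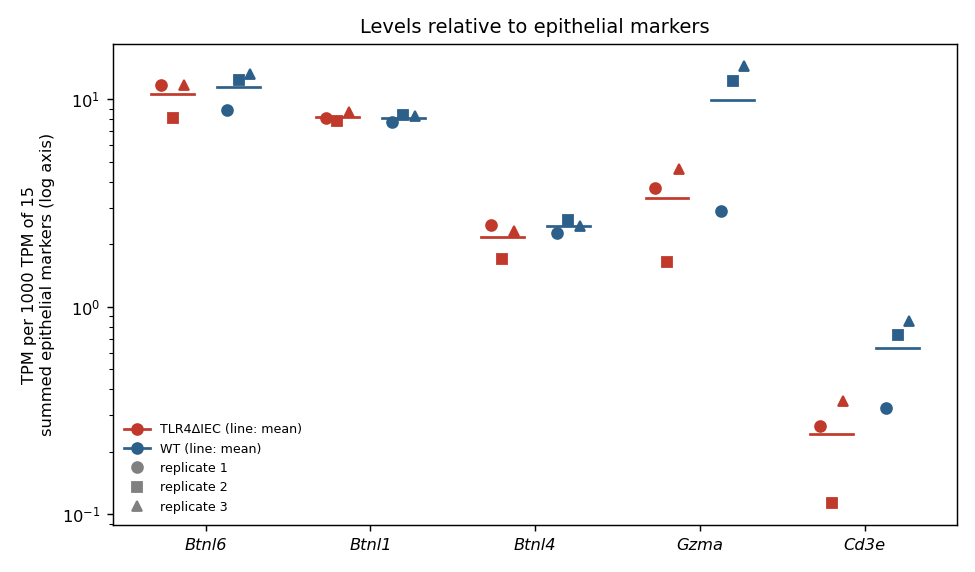
TPM of 5 genes per 1000 TPM of the 15 summed epithelial markers (log axis), libraries labelled TLR4ΔIEC left of WT; symbols are replicates and lines are means. Btnl1 has means of 8.22 in the libraries labelled TLR4ΔIEC and 8.16 in WT, while Cd3e has 0.244 and 0.636. Both genes overlap between the genotypes, and for Cd3e WT replicate 1 (0.324) lies below TLR4ΔIEC replicate 3 (0.350).

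Of 9 other butyrophilin family genes matched, 3 passed the filter, all in the same cluster. The pseudogene Btnl5-ps, which shares stretches with Btnl4 and Btnl6, read 235, 252 and 197 TPM in the libraries labelled TLR4ΔIEC, against 139, 171 and 135 TPM in WT (log2 fold change 0.62, limma adjusted p = 0.116). Btnl2, a neighbour of Btnl1, had 0.29 (limma adjusted p = 0.346) and Btnl7-ps 0.17 (limma adjusted p = 0.755), and both overlapped between the genotypes. The median of the 3 was 0.29, and −0.02 without alpha-defensins, mitochondrial and 18S-like transcripts. Skint7, a relative that acts in mouse thymus and skin, was listed at 0 in all 6 libraries.

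The 7 lymphocyte genes went the other way. All had negative fold changes, as did 4295 of all 13458 tested genes. The median of the 7 was −0.74, against 0.16 for all tested genes, and none passed the threshold. In each of the 7, WT replicates 2 and 3 were the highest 2 of the 6 libraries, a pattern found in 3.46% of tested genes, and WT replicate 1 was the lowest WT library, as in 30.6% of tested genes.

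Cd3e (ENSMUSG00000032093, chr9:44998740-45009627, minus strand) encodes a chain of the CD3 complex that every T cell uses to signal. It read 4.86, 2.76 and 6.40 TPM in the libraries labelled TLR4ΔIEC, against 4.72, 10.2 and 11.1 TPM in WT. WT replicate 1 lay within the range of the libraries labelled TLR4ΔIEC and the other WT libraries above it. The log2 fold change was −0.75 (interval −1.61 to 0.11, limma adjusted p = 0.288). Cd8a (ENSMUSG00000053977, chr6:71373427-71379173, plus strand), the CD8 alpha chain that intraepithelial lymphocytes often carry as a homodimer, read 3.61, 2.74 and 4.82 TPM in the libraries labelled TLR4ΔIEC, against 3.23, 8.49 and 9.24 TPM in WT (log2 fold change −0.68, limma adjusted p = 0.337). The pattern was like that of Cd3e. Per TPM of Cd3e, Cd8a stood at 0.830 ± 0.141 in the libraries labelled TLR4ΔIEC and 0.783 ± 0.0857 in WT (SD, n = 3 each), and the groups overlapped. Cd8b1, the beta chain of conventional CD8 T cells, stood at 0.258 ± 0.0503 per TPM of Cd8a in the libraries labelled TLR4ΔIEC and 0.301 ± 0.0655 in WT, and again overlapped.

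The granzymes are proteases of cytotoxic granules that enter and kill target cells. Gzma (ENSMUSG00000023132, chr13:113093825-113100981, minus strand) was the most abundant of the 7 and read 68.2, 40.1 and 84.0 TPM in the libraries labelled TLR4ΔIEC, against 42.2, 170.2 and 188 TPM in WT. Gzmb (ENSMUSG00000015437, chr14:56258838-56262260, minus strand) read 23.1, 11.9 and 16.5 TPM in the libraries labelled TLR4ΔIEC, against 8.22, 52.1 and 48.8 TPM in WT. In both genes WT replicates 2 and 3 stood far above every other library, while WT replicate 1 was below or near the lowest library labelled TLR4ΔIEC. The spread within WT made the intervals wide, with log2 fold changes of −0.84 for Gzma (interval −2.21 to 0.52, limma adjusted p = 0.447) and −0.72 for Gzmb (interval −2.28 to 0.84, limma adjusted p = 0.576). Per TPM of Cd3e, Gzma came to 14.0, 14.5 and 13.1 TPM in the libraries labelled TLR4ΔIEC, against 8.94, 16.6 and 17.0 TPM in WT, and WT replicate 1 was the library with the lowest ratio.

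Itgae (ENSMUSG00000005947, chr11:73090583-73147446, plus strand) encodes the alpha chain of CD103. It read 3.03, 1.65 and 3.16 TPM in the libraries labelled TLR4ΔIEC, against 4.4, 6.72 and 7.20 TPM in WT. It was the one lymphocyte member whose libraries labelled TLR4ΔIEC all lay below WT, a separation found in 3.53% of tested genes. Its log2 fold change was −0.98 (interval −1.60 to −0.37), and it did not pass (limma adjusted p = 0.117, range over the alternatives 0.0660 to 0.380). Haspin lies within the Itgae gene on the opposite strand but shares no exon base with it. Per TPM of Cd3e, Itgae was also lower, with 0.623, 0.598 and 0.494 TPM in the libraries labelled TLR4ΔIEC, against 0.932, 0.656 and 0.652 TPM in WT.

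Cd7 (ENSMUSG00000025163, chr11:121036747-121039418, minus strand), a surface protein of T and NK cells, read 13.9, 13.2 and 16.4 TPM in the libraries labelled TLR4ΔIEC, against 14.9, 33.2 and 30.3 TPM in WT. The libraries labelled TLR4ΔIEC were close to each other and to WT replicate 1, below the other WT libraries, and the log2 fold change was −0.74 (interval −1.44 to −0.04, limma adjusted p = 0.218). Cd160 (ENSMUSG00000038304, chr3:96798763-96829351, minus strand), a receptor that binds the epithelial ligand HVEM, read 3.33, 2.25 and 3.22 TPM in the libraries labelled TLR4ΔIEC, against 2.06, 4.48 and 5.11 TPM in WT. Its log2 fold change of −0.26 was the smallest of the 7 (interval −0.97 to 0.44, limma adjusted p = 0.659). Pdzk1, a scaffold gene on the opposite strand, shares 2.57% of the exon bases of Cd160 and read 137.5, 206 and 274 TPM in the libraries labelled TLR4ΔIEC, against 133, 99.0 and 110.1 TPM in WT. The sources used here do not say whether the counting used strand, and the part of Pdzk1 in the Cd160 values was not tested. Per TPM of Cd3e, Cd160 stood higher in the libraries labelled TLR4ΔIEC, with 0.685, 0.815 and 0.503 TPM, against 0.436, 0.438 and 0.462 TPM in WT. That ratio rests on Cd3e, whose log2 fold change was −0.75, against −0.49 for Cd3g, −0.26 for Cd247 and −0.20 for Cd3d. Ratios of Cd160 to those other chains were not computed.

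The size of these differences depended on which WT library was left out. Without WT replicate 1 the log2 fold changes were −1.53 for Gzma, −1.55 for Gzmb, −1.09 for Cd3e, Cd8a and Cd7, −0.57 for Cd160 and −1.17 for Itgae. None passed (limma adjusted p 0.0853 to 0.282), where 0.238% of tested genes did. Without WT replicate 2 they were −0.54 for Gzma, −0.28 for Gzmb, −0.60 for Cd3e, −0.50 for Cd8a, −0.53 for Cd7, −0.15 for Cd160 and −0.91 for Itgae. Without WT replicate 3 they were −0.46 for Gzma, −0.33 for Gzmb, −0.55 for Cd3e, −0.45 for Cd8a, −0.60 for Cd7, −0.07 for Cd160 and −0.87 for Itgae. The sign was negative in each case, and Itgae varied least. Of the butyrophilin-like genes, Btnl6 had 0.28 without WT replicate 1, against 0.42 with all libraries. WT replicate 1 also differed in mast cell proteases: Mcpt1 read 4.49, 3.82 and 3.71 TPM in the libraries labelled TLR4ΔIEC, against 102, 7.08 and 4.64 TPM in WT, and Mcpt2 read 2.95, 1.86 and 1.42 TPM in the libraries labelled TLR4ΔIEC, against 36.4, 2.29 and 1.32 TPM in WT. Kit, a receptor of mast and interstitial cells, overlapped, with a log2 fold change of −0.12. The 10 mast cell genes summed to 9.53 to 15.1 TPM in the libraries labelled TLR4ΔIEC and to 12.4 to 150.2 TPM in WT. Of these, Cma1 was listed at 0 in every library, and 3 of 10 passed the filter. Their part in the granzyme values was not tested.

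TLR4ΔIEC replicate 2 was the lowest of the 6 libraries for Gzma, Cd3e, Cd8a, Cd7 and Itgae, as it was for 31.7% of all tested genes. Without it the log2 fold changes were −0.54 for Gzma, −0.50 for Gzmb, −0.48 for Cd3e, −0.52 for Cd8a, −0.68 for Cd7, −0.13 for Cd160 and −0.77 for Itgae, still negative in each case. The same library was nearly empty of B cell transcripts. The 14 B cell markers summed to 112, 4.69 and 186 TPM in the libraries labelled TLR4ΔIEC, against 19.3, 31.2 and 56.8 TPM in WT, and Cr2 was listed at 0 in TLR4ΔIEC replicate 2. The 13 tested B cell markers, like 9163 of all 13458 tested genes, had positive fold changes (median 0.77, none past the threshold), opposite in sign to the lymphocyte members. That median was 1.70 without TLR4ΔIEC replicate 2 and 0.50 without WT replicate 1. Cd79a, a signalling chain of the B cell receptor, had 0.36, Cd79b 0.44 and the IgD gene Ighd 1.21. The part of lymphoid tissue in the T cell values was not tested.

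The wider T cell lists had negative medians as well. One list held the T cell receptor, the CD3 complex and other T cell genes such as Lck and Cd4. Of its 19 tested genes, 16 had negative and 3 positive fold changes, where 4295 of all 13458 tested genes were negative. The list median was −0.35, but −0.02 without TLR4ΔIEC replicate 2 and −0.70 without WT replicate 1. None of its genes passed in either direction. Cd3g read 10.2, 5.32 and 14.2 TPM in the libraries labelled TLR4ΔIEC, against 7.40, 16.8 and 19.2 TPM in WT (log2 fold change −0.49, limma adjusted p = 0.551). Trbc2, a constant gene of the beta chain of the alpha-beta receptor, had −0.35, and Thy1, which stromal and nerve cells also express, had 0.04. Among constant genes of the receptor, chosen after their values were seen, Trac of the alpha chain read 4.66, 3.36 and 7.02 TPM in the libraries labelled TLR4ΔIEC, against 3.24, 8.51 and 9.15 TPM in WT, and Trgc1 of the gamma chain read 7.29, 2.71 and 8.04 TPM in the libraries labelled TLR4ΔIEC, against 4.74, 8.49 and 11.3 TPM in WT. Both overlapped between the genotypes. Trdc of the delta chain, among the 3 positive genes, read 1.32, 0.79 and 1.34 TPM in the libraries labelled TLR4ΔIEC, against 1.01, 0.98 and 1.13 TPM in WT. Its log2 fold change was 0.07, and the groups overlapped. Per TPM of Cd3e, Trac was higher in the libraries labelled TLR4ΔIEC at 1.09 ± 0.129 TPM than in WT at 0.782 ± 0.0826 TPM, and the groups were apart. On that scale Trgc1 averaged 1.25 ± 0.259 TPM in the libraries labelled TLR4ΔIEC and 0.953 ± 0.107 TPM in WT. These groups overlapped. Cd3e itself had a log2 fold change of −0.75, against −0.26 for Cd247 and −0.20 for Cd3d. A lower Cd3e raises every ratio to it, and how often such ratios separate over all genes was not computed.

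Of 22 tested cytotoxic and surface genes of intraepithelial lymphocytes, 19 had negative and 3 positive fold changes (median −0.38, and −0.18 without TLR4ΔIEC replicate 2). None passed, and 6 had all libraries labelled TLR4ΔIEC below WT. Over all tested genes, 4295 of 13458 were negative and 3.53% had that separation. Ccl5, a chemokine stored by resident T cells, read 62.6, 53.9 and 94.3 TPM in the libraries labelled TLR4ΔIEC, against 97.5, 290 and 261 TPM in WT (log2 fold change −1.50, SE 0.43, limma adjusted p = 0.131). Fcer1g and Tyrobp, signalling adaptors that myeloid cells express as well, overlapped between the genotypes, with log2 fold changes of −0.13 and −0.39. Of 15 tested transcription factors and cytokine receptors, 4 had positive and 11 negative fold changes (median −0.11, but 0.17 without TLR4ΔIEC replicate 2 and −0.17 without WT replicate 1), and none passed. Id3 and Sox13, transcription factors with roles in gamma-delta T cells, were among the positive ones, with 0.59 and 0.55 (limma adjusted p = 0.266 and 0.112). In the libraries labelled TLR4ΔIEC, Id3 averaged 164 TPM and Sox13 50.6 TPM, where Cd3e averaged 4.67 TPM. In WT they averaged 105 and 34.1 TPM, where Cd3e averaged 8.67 TPM. The cell type behind the Id3 and Sox13 levels was not tested. Of 13 markers of NK and innate lymphoid cells, 3 passed the filter, none of them past the threshold: Kit, the alarmin receptor gene Il1rl1 (−0.15) and the growth factor gene Areg (1.24), which epithelium also expresses. Ncr1, a listed marker of NK and innate lymphoid cells that was below the filter, read 0.04 to 0.37 TPM in the libraries labelled TLR4ΔIEC and 0.17 to 0.24 TPM in WT.

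**Figure D4:**
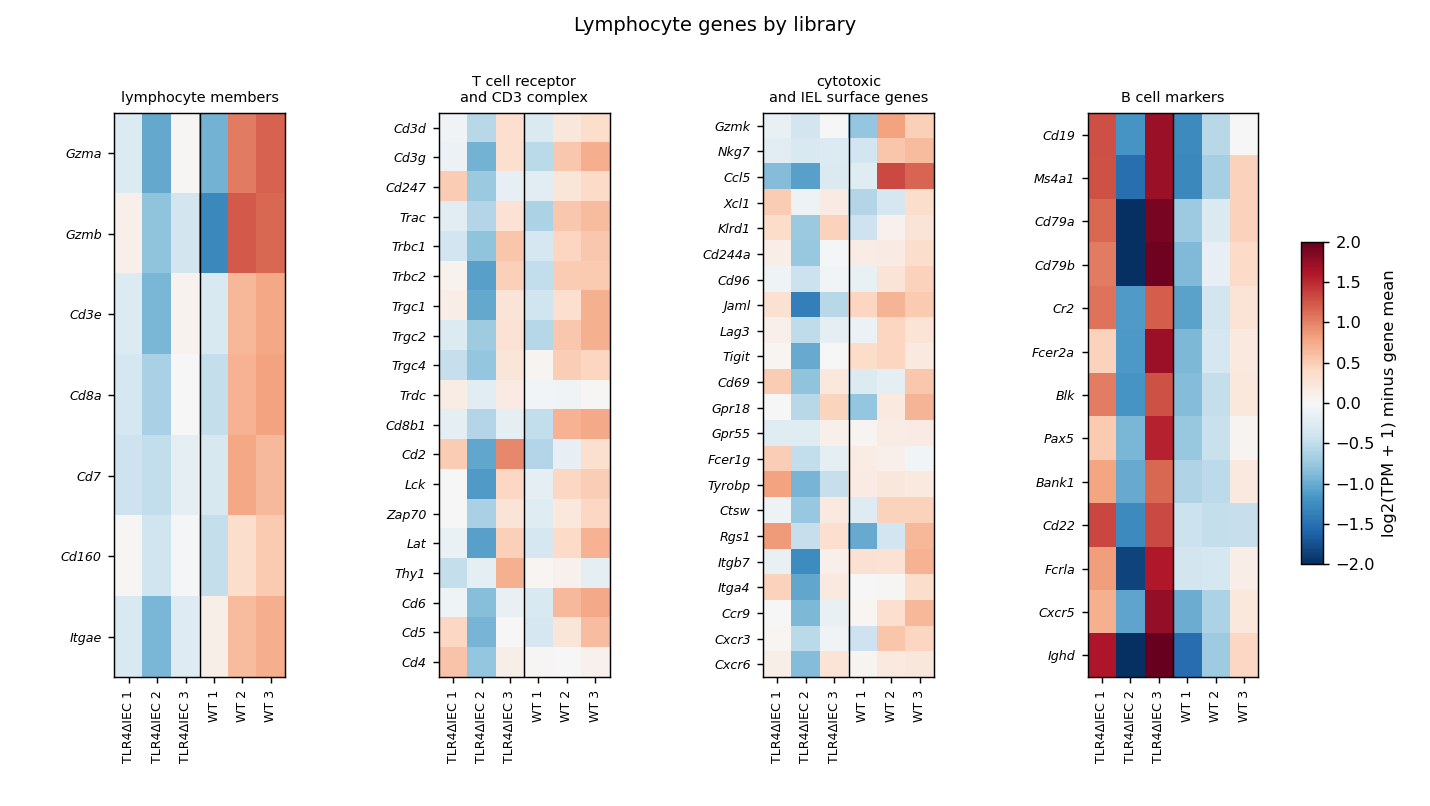
Each row is a tested gene, each column a library, libraries labelled TLR4ΔIEC left of the line and WT right; colour is log2(TPM + 1) minus the gene's mean over the 6 libraries, capped at 2 in either direction. The 7 lymphocyte members are strongest in WT replicates 2 and 3, whereas B cell genes are strongest in TLR4ΔIEC replicates 1 and 3.

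Of 22 tested genes of the epithelial ligand list, 14 had positive and 8 negative fold changes, where 9163 of all 13458 tested genes were positive. The list also holds genes that encode no ligand of a lymphocyte receptor, such as Ocln and Aldh1a1, so its counts are not of ligands alone. The median was 0.46, and 0.15 without alpha-defensins, mitochondrial and 18S-like transcripts. None passed the threshold, 9 lay wholly above WT and 2 below, where 24.1% and 3.53% of all tested genes did. Cdh1, the E-cadherin bound by CD103, read 264, 338 and 234 TPM in the libraries labelled TLR4ΔIEC, against 187, 162 and 163 TPM in WT (log2 fold change 0.69, limma adjusted p = 0.113). The chemokine Ccl25, which draws lymphocytes to the small intestine through Ccr9, read 500.1, 785 and 729 TPM in the libraries labelled TLR4ΔIEC, against 394, 391 and 434 TPM in WT (log2 fold change 0.70, limma adjusted p = 0.137). H2-T23, a class I gene whose product is seen by NK-type receptors, had 0.69 with overlapping libraries (limma adjusted p = 0.530).

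Some receptors and their ligands were picked with their values already known and by no fixed rule, so they are examples only. Itgb7, the partner chain of Itgae, read 8.47, 3.39 and 10.2 TPM in the libraries labelled TLR4ΔIEC, against 11.9, 11.8 and 15.9 TPM in WT. Ccr9 had a log2 fold change of −0.69, against 0.70 for its ligand Ccl25. Jaml, a costimulatory receptor of intraepithelial T cells, read 13.6, 3.57 and 7.04 TPM in the libraries labelled TLR4ΔIEC, against 14.98, 17.9 and 16.03 TPM in WT. Its epithelial ligand Cxadr read 60.5, 78.2 and 66.0 TPM in the libraries labelled TLR4ΔIEC, against 43.4, 36.0 and 39.9 TPM in WT. H2-T3, which encodes the TL antigen that binds the CD8 alpha homodimer, read 106, 154 and 141 TPM in the libraries labelled TLR4ΔIEC, against 76.7, 78.2 and 72.2 TPM in WT (log2 fold change 0.80, limma adjusted p = 0.0955). Per 1000 TPM of epithelial markers, H2-T3 remained apart at 6.63 ± 0.974 TPM in the libraries labelled TLR4ΔIEC and 5.48 ± 0.181 TPM in WT, as did Cxadr, while Ccl25 and Cdh1 overlapped. The share of all genes that lie apart on that scale was not computed. Tnfrsf14, the HVEM bound by Cd160, read 47.6, 30.6 and 33.9 TPM in the libraries labelled TLR4ΔIEC, against 31.8, 51.5 and 44.1 TPM in WT, and the groups overlapped. Il15, the cytokine that sustains intraepithelial lymphocytes, also overlapped and read 19.2, 12.5 and 21.6 TPM in the libraries labelled TLR4ΔIEC, against 17.4, 11.5 and 9.58 TPM in WT.

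**Figure D5:**
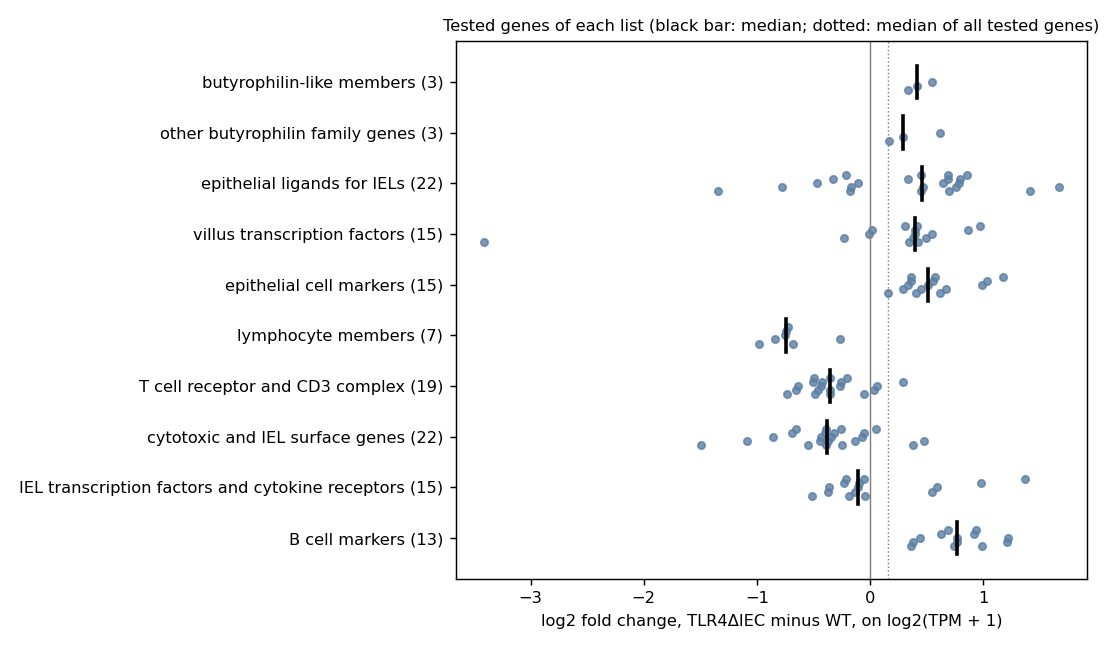
Log2 fold changes (horizontal axis, TLR4ΔIEC minus WT) of the tested genes of 10 lists, with the number tested in brackets; black bars are medians and the dotted line is the median of all tested genes, 0.16. The lists of epithelial ligands, villus factors and epithelial markers have medians of 0.46, 0.40 and 0.51, and the lymphocyte members a median of −0.74.

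Regional markers of the intestine differed between the same libraries, and they are given because butyrophilin-like genes and intraepithelial lymphocytes belong to the small intestinal villus. Of 15 villus transcription factors, Gata4, a factor of the proximal small intestine, fell past the threshold, to 0.23, 1.28 and 2.20 TPM in the libraries labelled TLR4ΔIEC, against 17.3, 31.4 and 17.0 TPM in WT (log2 fold change −3.41, limma adjusted p = 0.0494). The other 14 did not pass, among them Hnf4a at 0.31 and Elf3 at 0.87. Of 12 proximal markers, 10 were tested. Lct and Gata4 fell and S100g rose past the threshold, with log2 fold changes of −4.93, −3.41 and 3.00 (limma adjusted p = 0.0316, 0.0494 and 0.0350). Gata4 is counted in both lists, and 0.119% of all tested genes passed in either direction. Of 12 ileal markers none passed, and Fabp6, the ileal bile acid binding protein, had a log2 fold change of 2.17 (limma adjusted p = 0.124). Guca2a, which encodes guanylin, had 0.83, and Ang4, a Paneth cell antimicrobial, had −2.97. These calls depended on single libraries, since limma made 0 calls over all tested genes without WT replicate 2 (1681 at an unadjusted p under 0.05) and without TLR4ΔIEC replicate 2 (2651). The part of a regional difference in the levels of the 10 members was not tested.

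In order of mean TPM, the libraries labelled TLR4ΔIEC ran Btnl6, Btnl1, Gzma, Btnl4, Gzmb, Cd7, Cd3e, Cd8a, Cd160 and Itgae. In WT the order was Btnl6, Gzma, Btnl1, Gzmb, Btnl4, Cd7, Cd3e, Cd8a, Itgae and Cd160. Among the libraries labelled TLR4ΔIEC, neighbours overlapped from Gzma to Btnl4, from Gzmb to Cd7 and along the last 4, and the others were apart. In WT, neighbours were apart from Btnl1 to Gzmb and from Cd7 to Cd3e, and overlapped elsewhere. The genes nearest to Btnl1 in their centred log2 levels over the 6 libraries, by root mean square distance, were Cndp2 at 0.02, Ghdc at 0.03, and Fam83g, Sox13 and Rhod at 0.04. Btnl4 ranked only 1821 of 12064 genes by this distance from Btnl1, at 0.18, and Btnl6 ranked 2870, at 0.22. TLR4ΔIEC replicate 2 was the highest library for Btnl1 but the lowest of its group for Btnl4 and Btnl6. The genes nearest to Cd8a were Cd8b1 at 0.10, the fatty acid binding protein gene Fabp2 at 0.12, Unc93a at 0.12, and the members Cd3e at 0.14 and Cd7 at 0.14. Fabp2, an enterocyte gene, read 2922, 2558 and 4125 TPM in the libraries labelled TLR4ΔIEC, against 3243, 5661 and 7285 TPM in WT.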

How the data were processed

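Total RNA of 6 mouse intestine samples was sequenced, 3 per genotype, grouped by their titles. The table the authors deposited gives TPM per gene, per the file headers. Tools named in the submitters' processing notes are fastp, HISAT and RSEM, and the build is GRCm38.p5; settings are not given in the sources used here. Each library sums to 1000000 TPM within rounding, which hides its read depth, so counting error cannot be stated. The design text gives 3 mice per genotype. P-values measure the spread between these samples.

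After a filter on mean TPM (1 or more, leaving 13458 of 54012 genes), log2(TPM + 1) values were fitted in limma 3.58.1 under R 4.3.3 (lmFit, eBayes with trend, genotype as the term, two-sided, Benjamini-Hochberg over all tested genes, threshold 0.05). Fold changes on that scale understate those of low genes. The fit was also run on simulated data with independent noise for each gene and no shift of whole libraries. That run therefore does not cover the differences between libraries described above. The 10 members and the 12 gene lists were chosen with earlier results of these data known. Named genes are Tlr4, the members, up to 3 per list (those past the threshold, then the highest mean TPM), and the 5 nearest profiles of Btnl1 and Cd8a. Others are examples chosen after their values were seen. A gene that this rule names is not reported here. Of the list genes, 4 were matched by synonym and 1 was not matched. The 18S-like genes are Rn18s, Cmss1 and Gphn. Positions are from GENCODE M21 (GRCm38) and start windows from RefSeq (GRCm38.p6). Alternatives were 2 other pseudocounts, 2 other filters, 4 scalings, other limma settings, the replicate block and each library left out.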

Additional observations from a re-analysis of the deposited data

How the results depend on the processing

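Under 18 alternatives the 10 members gave 178 values. None changed sign and none passed the threshold, the lowest limma adjusted p being 0.0660, for Itgae with array weights. With a mean of at least 5 TPM, Cd160, Itgae and Tlr4 had no value, nor had Tlr4 without TLR4ΔIEC replicate 3. The 16 genes called over all tested genes became 0 with no filter (3377 at an unadjusted p under 0.05 by limma), 7 at a mean of at least 5 TPM, 136 with array weights, and 0 to 367 when single libraries were left out: 367 without TLR4ΔIEC replicate 1, 32 without WT replicate 1, 5 without TLR4ΔIEC replicate 3, 3 without WT replicate 3, and 0 without TLR4ΔIEC replicate 2 or WT replicate 2 (2651 and 1681 at an unadjusted p under 0.05 by limma). Among the other lists, 3 called genes became 0 with no filter, 9 with array weights, and 0 to 15 when single libraries were left out. With the replicate number as a block, 1 gene was called overall and 0 among the other lists (2435 genes at an unadjusted p under 0.05 by limma). Deviations of same-numbered libraries from their group means correlated at −0.037, 0.035 and 0.118, against −0.154 to 0.106 for libraries of different numbers. With 3 libraries per group, these values cannot decide whether the numbers pair the samples. The cause of these shifts was not tested. TPM keep no depth, which leaves the low members Cd160, Itgae and Cd8a with unknown counting error.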
